A study of Mus musculus with 2 samples.

Results

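The 10 genes described here encode granule proteins and S100 proteins of granulocytes, and were taken from the chromatin accessibility data of a mouse megakaryocyte progenitor. They are S100a8, S100a9, Camp, Ngp, Ltf, Lcn2, Mmp9, Elane, Prtn3 and Mpo, 10 of the 21938 protein-coding genes of the annotation. Their open chromatin was collected as the merged regions whose strongest summit lay in the gene body or within 50 kb of the gene's 5′ end, with a region shared by neighbouring genes counted once. That gave 95 of the 80938 regions in the conservative list, the authors' list made from both libraries and thresholded on the irreproducible discovery rate (IDR), which measures how well peaks recur between libraries.

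Open chromatin was profiled by ATAC-seq, in which a transposase cuts and tags accessible DNA. The primary cells were megakaryocyte progenitors of male C57BL/6J mice, adults of 5 to 6 weeks, with 50000 cells in each library. There was 1 group of 2 biological replicates, from separate biosamples under 1 donor code, and no treated, mutant or other reference group. A further code in the labels, CFU-M, is left uninterpreted here, and how the cells were isolated is not stated there.

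Granules are made in waves as a neutrophil matures. Primary (azurophil) granules form in promyelocytes and carry myeloperoxidase and the serine proteases, secondary (specific) granules form in myelocytes and carry lactoferrin and antimicrobial proteins, and tertiary granules, rich in gelatinase, follow. S100A8 and S100A9 are calcium-binding proteins that pair as calprotectin and fill the cytosol of neutrophils. The transcription factors PU.1 and C/EBP are textbook regulators of this programme, PU.1 from early myeloid stages and C/EBP epsilon at the secondary granule genes.

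In the 200 bases before the most upstream protein-coding start, the letters of a PU.1 site (GAGGAAGT, either strand) were present at 4 of the 10 genes and at 2.05% of all 21938 protein-coding genes. The 4 genes were Mpo, Elane and Prtn3, which are all 3 of the primary granule genes here, and S100a8. The letters of a C/EBP site (TTGCNNAA, either strand) were present at 3 of the 10 genes and at 7.09% of all genes, and those 3 were Camp, Ngp and Ltf, from the secondary granule group of 4. No upstream stretch held both. In 100 bases the C/EBP letters were at Ngp and Ltf alone of the 10 genes, and in 400 bases S100a9 joined Camp, Ngp and Ltf, while the PU.1 genes were the same at each length. The 7 stretches with either set of letters are printed. Each is from GRCm38.p6, the assembly of mm10, is read 5′ to 3′ on the gene's strand and contains no annotated UTR, and capitals mark every match to any motif searched. Like the PU.1 match of S100a8, the C/EBP matches of Camp and Ltf and the RUNX match of Mpo fit their motifs on the opposite strand.

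Mpo (chr11:87793381-87793580, plus strand; in order MYB, RUNX, GATA and PU.1 matches): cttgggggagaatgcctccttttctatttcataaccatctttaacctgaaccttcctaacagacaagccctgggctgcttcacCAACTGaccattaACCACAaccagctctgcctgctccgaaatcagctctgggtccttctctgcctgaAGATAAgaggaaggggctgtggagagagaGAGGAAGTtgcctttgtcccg

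Elane (chr10:79886047-79886246, plus strand; PU.1 match): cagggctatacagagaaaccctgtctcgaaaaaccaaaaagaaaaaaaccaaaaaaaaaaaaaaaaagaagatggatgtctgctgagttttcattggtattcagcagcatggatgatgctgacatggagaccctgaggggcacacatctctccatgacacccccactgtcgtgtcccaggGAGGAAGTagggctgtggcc

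Prtn3 (chr10:79879414-79879613, plus strand; PU.1 match): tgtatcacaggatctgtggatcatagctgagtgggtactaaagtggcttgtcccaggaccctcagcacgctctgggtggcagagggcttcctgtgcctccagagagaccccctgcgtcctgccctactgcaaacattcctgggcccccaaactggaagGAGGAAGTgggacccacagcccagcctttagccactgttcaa

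S100a8 (chr3:90668778-90668977, plus strand; PU.1 match, read on the opposite strand): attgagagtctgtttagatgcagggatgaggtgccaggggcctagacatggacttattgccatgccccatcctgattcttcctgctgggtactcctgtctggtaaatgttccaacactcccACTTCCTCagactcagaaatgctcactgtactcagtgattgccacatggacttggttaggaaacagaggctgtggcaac

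Camp (chr9:109849618-109849817, minus strand; C/EBP match): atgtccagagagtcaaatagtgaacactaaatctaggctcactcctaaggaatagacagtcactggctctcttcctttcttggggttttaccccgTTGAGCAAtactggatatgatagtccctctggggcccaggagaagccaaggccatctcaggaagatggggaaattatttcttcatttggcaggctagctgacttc

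Ngp (chr9:110419547-110419746, plus strand; C/EBP match): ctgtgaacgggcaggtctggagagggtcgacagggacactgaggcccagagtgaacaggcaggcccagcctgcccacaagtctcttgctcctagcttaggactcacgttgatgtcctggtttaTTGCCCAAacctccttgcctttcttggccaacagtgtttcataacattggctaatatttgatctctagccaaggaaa

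Ltf (chr9:111019071-111019270, plus strand; C/EBP and GATA matches): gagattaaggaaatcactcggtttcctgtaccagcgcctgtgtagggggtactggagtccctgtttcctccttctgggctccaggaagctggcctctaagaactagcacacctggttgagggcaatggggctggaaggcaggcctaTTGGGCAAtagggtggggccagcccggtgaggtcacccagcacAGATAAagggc

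The 10 motifs searched were C/EBP and PU.1 as above, ETS (CCGGAAGT, which shares its last 6 letters with PU.1), AGATAA for GATA factors, TGTGGT for RUNX, CAACTG for MYB, TGANTCA for AP-1 (which lies within NF-E2), and GFI1, NF-E2 and CTCF by name, each on both strands. GATA letters were found upstream of 3 of the 10 genes (S100a9, Ltf and Mpo) against 6.76% of all genes, RUNX letters upstream of 2 (S100a9 and Mpo) against 10.4%, and MYB letters upstream of 1 (Mpo) against 8.39%. ETS, AP-1, GFI1, NF-E2 and CTCF letters were in none of the 10, against 3.17%, 4.69%, 0.128%, 0.196% and 0.893% of all genes. At Lcn2 and Mmp9 none of the 10 motifs was found in this window. A match describes the letters only and does not show that a factor was bound.

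The upstream stretches of these genes also held few CpG dinucleotides, with a median of 2 (0 to 3) in 200 bases, against a median of 7 over all protein-coding genes. Their GC content had a median of 51.5%, against 55.5% over all genes. S100a8 had 0 CpG, Ngp, Ltf and Mmp9 had 3 each, and no gene reached the median of all genes.

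**Figure D1:**
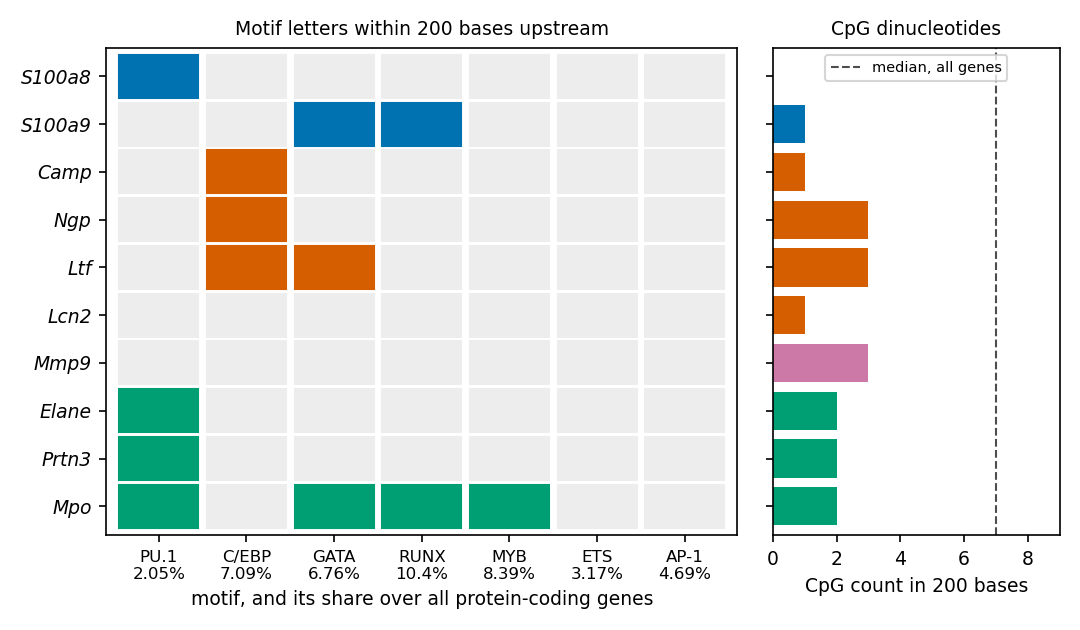
Motif letters and CpG count in the 200 bases upstream of each gene. Left, rows are genes and columns are motifs, a filled square marks at least 1 match on either strand, and the percentage under each name is the share of all 21938 protein-coding genes with a match. Right, bars give CpG dinucleotides per 200 bases and the dashed line the median of all genes, 7. PU.1 squares fall at Mpo, Prtn3, Elane and S100a8, and C/EBP squares at Camp, Ngp and Ltf.

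The strength of a region below is its signal, the value the authors' peak caller gave the strongest summit, with no stated scaling between libraries. A promoter region is one with a summit within 1 kb of an annotated protein-coding start. Of the 10 genes, 7 had a promoter region in the conservative list, and 60.5% of all protein-coding genes did. The share of 70% has a Wilson 95% interval of 39.7 to 89.2%, which covers counting error only. It treats the genes as independent draws, but they were chosen and some share loci, so it is no test against all genes. In replicate 1's own list 6 of the 10 had one, against 57.4% of all genes, and in replicate 2's own list 6 did, against 56.6%. In the IDR-thresholded list of both libraries 6 did, against 60.5%. In the more inclusive replicated and pseudoreplicated lists 9 did, against 68.4% and 67.9%. With a promoter window of 2 kb 9 did, against 63.8%. Among only the stronger 50% of all regions the direction turned, with 3 of the 10 genes against 43.9% of all genes. The 7 open promoters had a median signal of 6.59, below the median of 11.3 over the 13276 open promoters of all genes. Only Camp, S100a8 and S100a9 lay above that median.

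Of the primary granule genes, Mpo encodes the peroxidase that makes hypochlorous acid. Its promoter region had a signal of 5.90 in replicate 1 and 5.58 in replicate 2 (mean 5.74 ± 0.226, SD, n = 2) and 6.16 in the conservative list. Elane encodes neutrophil elastase, a serine protease. Its promoter region had 4.66 in replicate 1 and 5.66 in replicate 2 (mean 5.16 ± 0.706, SD, n = 2) and 5.22 in the conservative list, where 2.88% of open promoters were weaker. Prtn3, the gene of proteinase 3, a protease next to Elane, had no promoter region in the conservative list or in either replicate's own list. Its nearest summit lay 1.14 kb from a protein-coding start. A weak region of signal 3.78 did lie 63 bases from the annotated 5′ end of the gene, where a noncoding transcript starts, at the promoter of Plppr3. It was in neither replicate's own list and is counted here as distal. The more inclusive pseudoreplicated lists held this region at 3.48 in replicate 1 and 3.65 in replicate 2. Within 1 kb of a protein-coding start of Prtn3 they held a peak of 2.53 in replicate 1 and 2.52 in replicate 2. So the primary granule genes had weak promoter regions or none in both libraries.

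The secondary granule genes were spread more widely. Camp encodes the antimicrobial cathelicidin and had the strongest promoter region of the 10 genes. Its signal was 13.3 in replicate 1 and 14.7 in replicate 2 (mean 14.01 ± 0.986, SD, n = 2) and 14.98 in the conservative list, where 81.5% of open promoters were weaker. The region, chr9:109849185-109849863, has its summit 23 bases upstream of the start and covers the C/EBP match printed above. The weaker promoter regions of Ngp and Ltf also cover theirs. Ngp, a granule protein of the cystatin and cathelicidin family, had 5.43 in replicate 1 and 6.07 in replicate 2 (mean 5.75 ± 0.453, SD, n = 2) and 6.57 in the conservative list. Ltf encodes the iron-binding protein lactoferrin. Its promoter region had 6.59 in the conservative list and was in neither replicate's own list, though the pseudoreplicated lists held it at 6.98 in replicate 1 and 5.70 in replicate 2. Lcn2 encodes lipocalin 2, which binds bacterial siderophores. It had no promoter region in the conservative list, where the nearest summit was 5.81 kb away, and the pseudoreplicated lists gave 3.97 in replicate 1 and 5.98 in replicate 2. Within this class, then, Camp stood well above the other 3 genes in both libraries.

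Mmp9 encodes gelatinase B, the enzyme of tertiary granules. No list held a promoter region for it, including the most inclusive ones, and the nearest conservative summit was 1.93 kb from its start. Both S100 genes had promoter regions of middle strength. S100a8 had 11.96 in replicate 1 and 11.7 in replicate 2 (mean 11.8 ± 0.178, SD, n = 2) and 12.8 in the conservative list, with its summit 7 bases upstream of the start. S100a9 had 10.9 in replicate 1 and 10.5 in replicate 2 (mean 10.7 ± 0.215, SD, n = 2) and 11.5 in the conservative list, with its summit 82 bases upstream. Of the conservative list's open promoters, 64.2% were weaker than that of S100a8 and 52.6% weaker than that of S100a9.

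**Figure D2:**
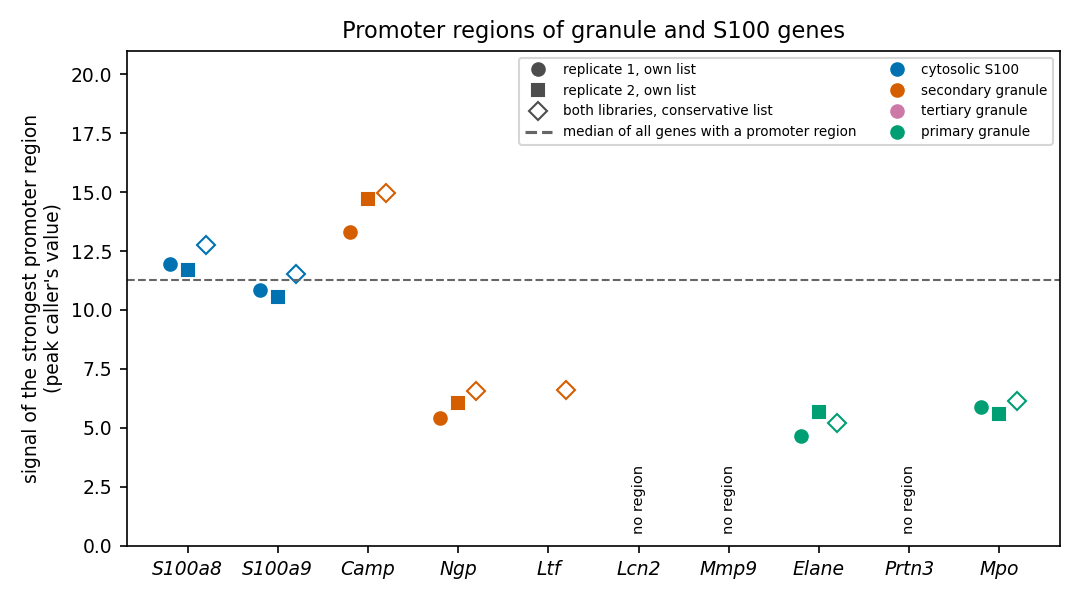
Signal of the strongest promoter region of each gene, in the peak caller's units. Filled circles are replicate 1 and filled squares replicate 2, from each library's own list, and open diamonds are the conservative list of both libraries; the dashed line is the median of all genes with a promoter region, 11.3. S100a8, S100a9 and Camp sit near or above the line, Ngp, Ltf, Elane and Mpo at 6.59 or below in the conservative list, and Lcn2, Mmp9 and Prtn3 have no region.

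Away from their starts the genes had many open regions. A distal region is one of the locus with its strongest summit over 1 kb from any protein-coding start of that gene. The 10 genes had a median of 10.5 distal regions (6 to 19), against 6 over all protein-coding genes. Of the 10, 9 had more than the median gene, as did 43.7% of all genes. Among only the stronger 50% of all regions the median was 4, against 3 over all genes. In each replicate's own list the median was 8 in replicate 1 and 7.5 in replicate 2 (mean 7.75 ± 0.354, SD, n = 2), against 4 over all genes in each.

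Prtn3 had 19 distal regions and Elane 18, and only 1.81% and 2.40% of all genes had as many as each. Both had the same number in each library, 13 at Prtn3 and 12 at Elane in replicate 1 and in replicate 2. Their 5′ ends are 11.8 kb apart and 16 regions belonged to both, so their counts are not separate observations, and 9 other genes lay in each window. Among only the stronger 50% of regions each had 2, as did Mpo, below the median gene at 3. S100a8 had 13, with 9 in replicate 1 and 11 in replicate 2, and S100a9 had 10, with 7 in replicate 1 and 8 in replicate 2. These neighbours, 26.7 kb apart, shared 11 regions. Mpo had 11, with 10 in replicate 1 and 7 in replicate 2, the widest difference between the libraries among the 10 genes. Mmp9 had 11, with 9 in replicate 1 and 8 in replicate 2, and Ngp had 10, with 6 in each replicate. Lcn2 had 9, with 7 in replicate 1 and 6 in replicate 2, and Ltf had 8, with 5 in replicate 1 and 7 in replicate 2. Camp had 6, equal to the median gene, with 6 in replicate 1 and 5 in replicate 2. It had the fewest of the 10 in the conservative list and in replicate 2, and Ltf had the fewest in replicate 1.

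**Figure D3:**
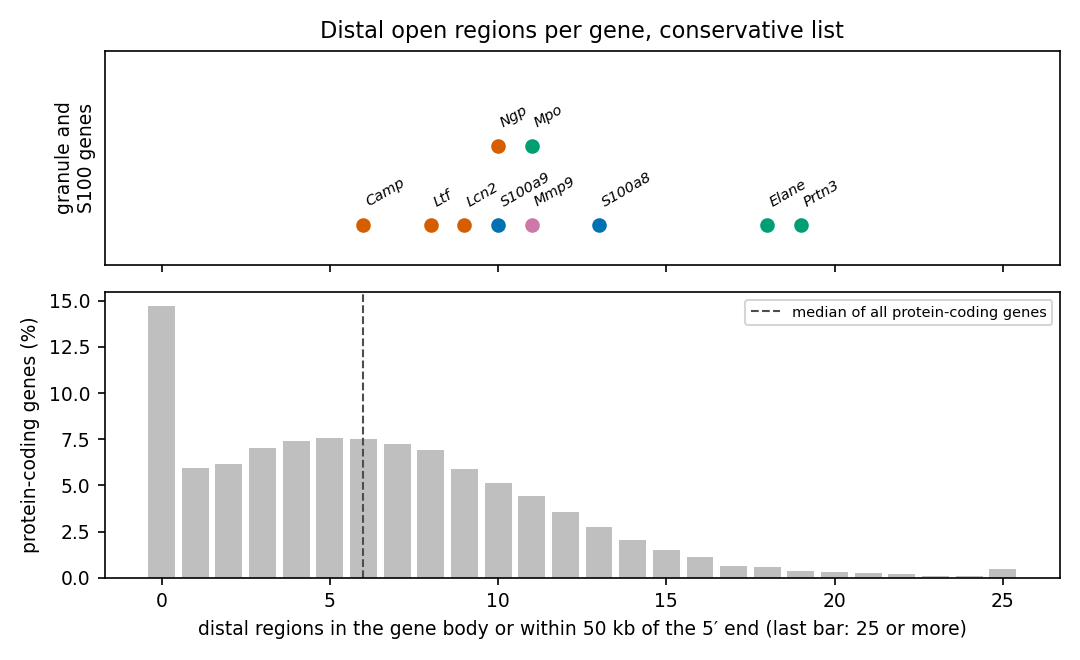
Distal open regions per gene in the conservative list. Top, each point is 1 of the 10 genes placed at its count on the shared axis, coloured by class as in the promoter plot. Bottom, bars give the percentage of all protein-coding genes at each count, the last bar holding 25 or more, and the dashed line marks the median of 6. Camp lies on the median, the other 9 genes to its right, and Elane and Prtn3 farthest out.

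Many of these regions belong to neighbours by position. Of the 95, 7 were the promoter regions of the genes themselves, 22 lay at promoters of other genes and 66 outside any promoter. The share at a promoter was 30.5%, against 19.0% of all regions. For 29 regions the nearest protein-coding start was that of 1 of the 10 genes, and for 66 it was that of another gene. By location, 35 were intergenic, 24 intronic, 4 in noncoding exons and 3 in UTRs, beside the 29 at promoters. No value here assigns a distal region to a target gene.

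The strongest distal regions were far from the starts, and 3 of them are shown by the 151 bases around the summit (plus strand, GRCm38.p6, capitals for motif matches as above). Another stretch, from 3′ of Ltf, is shown because it holds the PU.1 letters in a pair of copies.

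Mmp9 −16.1 kb (chr2:164924580-164924730; no match): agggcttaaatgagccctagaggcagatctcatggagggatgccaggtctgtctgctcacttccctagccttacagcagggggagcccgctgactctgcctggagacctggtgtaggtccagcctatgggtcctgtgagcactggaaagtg

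Ngp +29.3 kb (chr9:110448985-110449135; GATA, then MYB): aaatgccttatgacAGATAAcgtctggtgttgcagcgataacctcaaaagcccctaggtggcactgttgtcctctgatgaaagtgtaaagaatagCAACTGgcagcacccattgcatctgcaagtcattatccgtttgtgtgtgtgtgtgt

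S100a9 −14.5 kb (chr3:90710188-90710338; CTCF): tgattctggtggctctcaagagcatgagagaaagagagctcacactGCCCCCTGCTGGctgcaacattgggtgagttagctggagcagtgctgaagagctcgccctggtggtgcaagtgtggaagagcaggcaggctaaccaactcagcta

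Ltf +27.1 kb (chr9:111046311-111046461; PU.1, 2 matches): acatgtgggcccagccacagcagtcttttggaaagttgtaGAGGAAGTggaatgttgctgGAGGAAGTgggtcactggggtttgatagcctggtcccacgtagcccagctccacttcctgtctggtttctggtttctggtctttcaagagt

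The strongest of the 95 regions, chr2:32404574-32405114, lay 16.6 kb upstream of Lcn2 in a UTR of Ptges2, so its sequence is not printed. Its signal was 17.7 in replicate 1 and 17.0 in replicate 2 and 19.0 in the conservative list, rank 1401 of 80938, and its summit window held CTCF letters. The Mmp9 region at −16.1 kb is intergenic and had 15.7 in replicate 1 and 17.0 in replicate 2, and 18.4 in the conservative list. Mmp9 thus combined no promoter region with 1 of the strongest regions at any of the loci. The Ngp region at +29.3 kb lies in an intron of Klhl18 and had 16.1 in replicate 1 and 17.3 in replicate 2, and 18.2 in the conservative list. A second region in the same gene, at +20.995 kb, had 12.2 in replicate 1 and 13.1 in replicate 2. The intergenic region 14.5 kb upstream of S100a9 had 16.1 in replicate 1 and 16.5 in replicate 2, and 17.8 in the conservative list. These 4 regions were the only ones of the 95 in the top 5% of all regions, and each exceeded every promoter region of the 10 genes in both libraries.

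At Ltf the region at +27.1 kb had 12.4 in replicate 1 and 14.2 in replicate 2, about 7.58 kb from the nearest protein-coding start, which is that of Ltf. A weaker region inside the Ltf gene, at +14.6 kb in an intron, had 8.49 in replicate 1 and 7.39 in replicate 2, and it too held the PU.1 letters. Of the 8 loci windows with PU.1 letters, 3 were at Ltf. At Lcn2 the next strongest regions were the promoters of neighbours, 14.99 at that of 1110008P14Rik and 14.2 at that of Dnm1 in the conservative list. At Camp, besides its own promoter, the promoter of Nme6 at +16.9 kb had 14.03 in replicate 1 and 13.2 in replicate 2.

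Inside Mmp9, which lacked a promoter region, an intronic region at +2.34 kb had 8.39 in replicate 1 and 9.26 in replicate 2 and held PU.1 and RUNX letters. Another at +12.6 kb had 10.2 in replicate 1 and 11.9 in replicate 2 and held C/EBP letters. Both intronic regions were higher in replicate 2.

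At the primary granule genes the strongest regions were weaker. At Mpo they were a pair in introns of Tspoap1. The region at −22.4 kb had 10.9 in replicate 1 and 12.6 in replicate 2, and 12.7 in the conservative list, and held CTCF letters, and the region at −14.9 kb had 10.8 in replicate 1 and 12.3 in replicate 2. At Elane and Prtn3 the strongest region was the promoter of Med16, 22.4 kb downstream of the Elane 5′ end, with 11.7 in replicate 1 and 11.3 in replicate 2. Within the Prtn3 gene itself, 2 intronic regions had 4.55 and 5.86 in replicate 1 and 4.70 and 5.78 in replicate 2. An intergenic region 6.68 kb downstream of the Elane 5′ end had 10.3 in replicate 1 and 11.5 in replicate 2. These 2, at +22.4 and +6.68 kb, were the only distal regions of either gene above the median signal of all regions, 8.90.

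**Figure D4:**
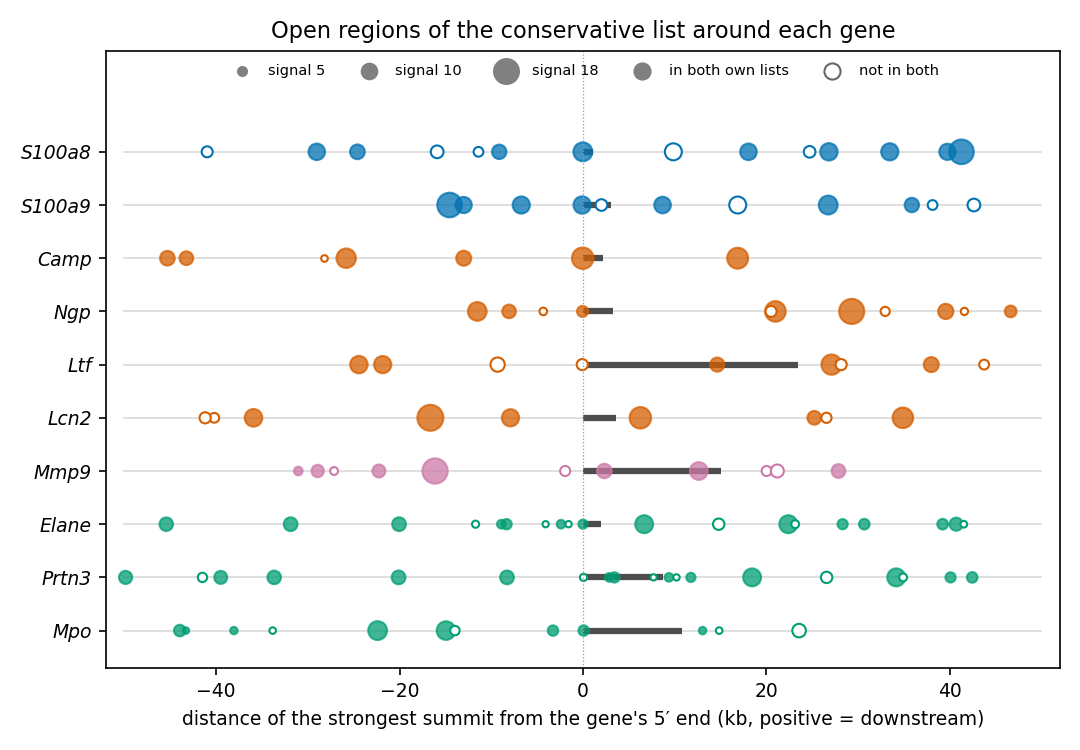
Open regions of the conservative list around each gene, by distance of the strongest summit from the gene's 5′ end in kb, positive downstream. Circle area grows with signal, dark bars are gene bodies, filled circles are regions in both replicates' own lists and open circles are not. Large circles lie away from 0 at Lcn2 and Mmp9 (near −16 kb), Ngp (+29.3 kb) and S100a9 (−14.5 kb), and the small circles crowd at Elane, Prtn3 and Mpo.

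By class, the 34 regions at the primary granule genes had a median signal of 6.07, and 4 of them (11.8%) exceeded the median of all regions, 8.90. The 14 regions at the S100 genes had a median of 10.7, and 10 of them (71.4%) exceeded it. The 36 at the secondary granule genes had a median of 9.14, with 19 (52.8%) above it, and the 11 at Mmp9 had a median of 7.99, with 3 (27.3%) above it. In the replicates' own values the class medians were 6.28 in replicate 1 and 6.25 in replicate 2 for primary, 9.63 in replicate 1 and 11.03 in replicate 2 for secondary, 7.63 in replicate 1 and 7.79 in replicate 2 for tertiary, and 10.1 in replicate 1 and 9.50 in replicate 2 for S100 loci. The primary granule loci were lowest in both libraries, and the order of the S100 and secondary granule loci differed between the libraries. No test was made, since regions are not replicates.

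Over all 95 regions the median signal was 8 (3.19 to 19.0), against 8.90 over all regions, and 36 (37.9%) lay above the median of all regions. The median width was 432 bp, against 454 bp over all regions.

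The replicates listed much the same regions. Of the 95, 63 were in both replicates' own lists, where a region counts as shared when at least 50% of either is covered. That is 66.3% (Wilson 95% interval 56.3 to 75.02%), and 63.9% of all regions of the conservative list were in both. The interval covers counting error only and is no test, since regions are not replicates. Each replicate's list held 68 of the 95, with 5 in replicate 1 alone, 5 in replicate 2 alone and 22 in neither. Of the 22, 19 were in both pseudoreplicated lists and none had a signal above 6.77. Shared regions tended to be stronger, with a median signal of 9.32 for the 63 in both lists and 5.33 for the 22 in neither.

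Across the 63 shared regions the log2 ratio of replicate 1 to replicate 2 had a median of −0.04 with an SD of 0.15, and ranged from −0.56 to 0.23. Over all 51738 shared regions the median was −0.08 with an SD of 0.18. Of the 63, 22 were higher in replicate 1 and 41 in replicate 2. The most uneven region, at the promoter of Misp 49.9 kb upstream of Prtn3, had 5.93 in replicate 1 and 8.72 in replicate 2. Per gene, the median log2 ratio ran from −0.20 at Ltf to 0.03 at S100a8 and S100a9. The label of replicate 1 names sequencers of more than 1 model, and their part in these differences was not tested.

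**Figure D5:**
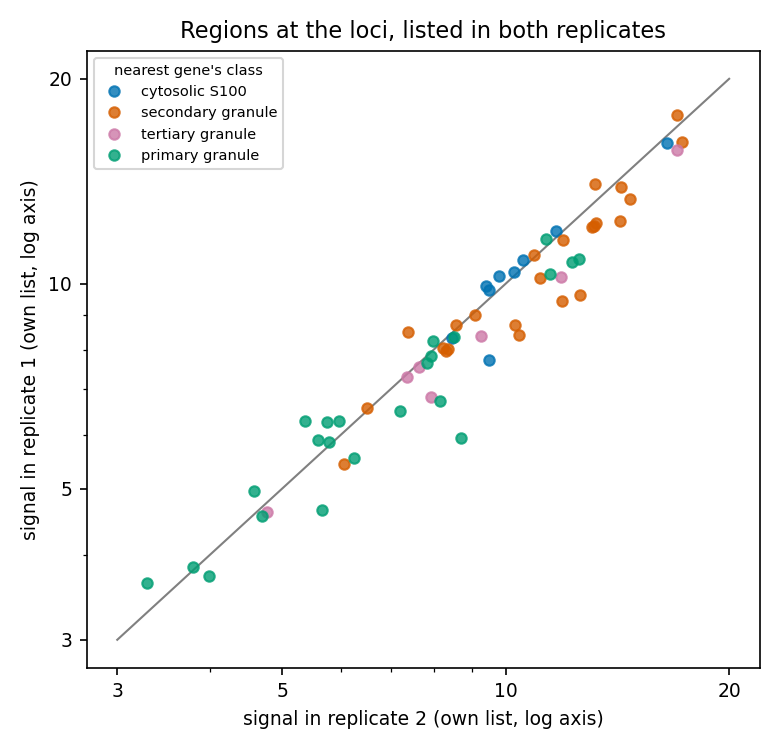
Signal of the 63 regions in both own lists, replicate 1 (vertical) against replicate 2 (horizontal), both on log axes in the peak caller's units, with the line of equal signal. Points are coloured by class of the locus. Primary granule loci fill the low end and the S100, Lcn2, Ngp and Mmp9 regions the high end, and 41 points lie on the replicate 2 side of the line.

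In the 151 bases around the summits of the 95 regions, RUNX, C/EBP, PU.1, CTCF and ETS letters were about as frequent as over all regions. GATA, MYB and AP-1 letters were less frequent, and no test was made. RUNX letters were in 20 (21.1%), against 19.8% of all 80938 windows, C/EBP letters in 11 (11.6%) against 9.85%, and PU.1 letters in 8 (8.42%) against 6.71%. GATA letters were in 7 (7.37%) against 11.9%, MYB in 6 (6.32%) against 9.49%, CTCF in 5 (5.26%) against 5.40%, AP-1 in 3 (3.16%) against 7.04%, and ETS in 1 (1.05%) against 1.37%. GFI1 and NF-E2 letters were in none, against 0.0568% and 1.03%. At the S100 loci RUNX letters were in 6 of 14 windows, including the S100a9 promoter region, and CTCF letters in 3 of 14, all 3 outside the gene pair, 13.01 and 14.54 kb upstream of S100a9 and 15.9 kb upstream of S100a8. By class, C/EBP letters were in 11.8% of primary and 11.1% of secondary granule windows, and PU.1 letters in 5.88% of primary and 8.33% of secondary windows, so the split seen upstream of the starts was not seen over the open regions. With 50 bp each side of the summit, PU.1 letters were in 4 windows (4.21%), against 5.37% of all windows, the other direction. The PU.1 letters of S100a8 and Elane and the C/EBP letters of Ngp and Ltf fell in the summit windows of those genes' own promoter regions.

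Other granule genes, from a list of 30, had a promoter region in 23 (76.7%), against 60.5% of all genes. In each replicate 22 did, against 57.4% of all genes in replicate 1 and 56.6% in replicate 2. The highest signals were at Ms4a3, a membrane protein of granulocyte and monocyte precursors (13.1), Slpi, a protease inhibitor (12.2), Ctsc, which activates the granule proteases (12.05), and Hp, haptoglobin (11.6). Chil3, Cd177, Olfm4, Cybb, Padi4, Itgb2l and Lrg1 had none in the conservative list. Distal regions numbered 17 at Srgn, whose product serglycin packs granule proteins, 14 at Prss57 and Lrg1, and 13 at Mmp25 and Ncf1. The count of Prss57 includes regions of the Prtn3 locus. The median was 8.5, against 10.5 at the 10 genes and 6 at all genes. Ctsg, another primary granule protease, was named after its value was seen, and had a promoter signal of 7.11 in replicate 1 and 6.84 in replicate 2.

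The 15 other S100 genes had a promoter region in 9 (60%), in the conservative list and in each replicate. That was near the share of all genes, 60.5% in the conservative list, 57.4% in replicate 1 and 56.6% in replicate 2. The highest were S100a14 (10.4), S100a3 (9.75), S100a4 (9.70) and, through 1 shared region, S100a1 and S100a13 (8.97), all below S100a8 and S100a9. S100a5, S100a7a, S100a16, S100b, S100g and S100z had none. The most distal regions were at S100a7a (16), S100a10 (15), and S100a5, S100a6 and S100a11 (13 each). S100a7a lies next to S100a8, and its count includes regions of that locus, as do the counts of S100a5 and S100a6. The windows of S100a10 and S100a11 overlap each other.

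All 10 genes listed here as regulators of granule genes had a promoter region in the conservative list, against 60.5% of all genes. Whether each listed gene, Per3 among them, regulates granule genes was not tested. Among only the stronger 50% of all regions the direction turned, with 3 of the 10 regulators against 43.9% of all genes. The regulators' promoter regions had a median signal of 7.87, below the median of 11.3 over the open promoters of all genes. Only Klf5 and Per3 lay above that median. The signal was 8.45 at Cebpa, 4.75 at Cebpb, 7.65 at Cebpd and 4.60 at Cebpe, the C/EBP factors, 10.4 at Spi1, which encodes PU.1, 8.08 at Runx1, 7.22 at Myb, 6.83 at Gfi1, 14.5 at Klf5 and 11.7 at Per3. Cebpe, the factor of secondary granule genes, had 4.73 in replicate 1 and was not in replicate 2's own list. Runx1 had the most distal regions, 21, and Klf5 the fewest, 4. Spi1 had 10.1 in replicate 1 and 9.80 in replicate 2, above Cebpa at 8.05 in replicate 1 and 8.80 in replicate 2.

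The labelled cell type was set beside markers of other cells. Of 20 megakaryocyte and platelet genes 11 (55%) had a promoter region in the conservative list, against 60.5% of all genes. In the own lists 6 of 20 did in replicate 1, against 57.4% of all genes, and 7 of 20 in replicate 2, against 56.6%. The direction turned in the more inclusive lists, with 16 of 20 against 68.4% of all genes in the replicated list and 17 of 20 against 67.9% in the pseudoreplicated list. Gp1ba (13.9), Thbs1 (10.2) and Gp5 (6.60) were highest, and Gp1bb, Gp6 and Ppbp had none. Their median distal count was 9. Of 10 mature neutrophil genes 6 had a promoter region, led by Trem1 (13.8), Mrgpra2b (12.9) and Mmp8 (10.9), with none at Cxcr2, Fpr1 and Fpr2. Of 12 monocyte and macrophage genes 8 did, led by Adgre1 (15.6), Irf8 (14.3) and Cx3cr1 (12.5), with none in the conservative list at Csf1r, Cd14 and Marco, although replicate 1's own list held one at Cd14 (6.86). Of 8 genes in each list, promoter regions were at 6 erythroid, 4 B cell, 3 mast cell, basophil and eosinophil, and 2 T and NK cell genes. The median distal count was 10.5 at the erythroid genes, as at the 10 granule and S100 genes. It was 10 at the monocyte and macrophage genes and 9.5 at both the mature neutrophil genes and the regulators. At the other S100 and the B cell genes it was 8, at the mast cell, basophil and eosinophil genes 6.5, and at the T and NK cell genes 4. In bulk chromatin, a minority of cells of another type and a low level of openness in all cells cannot be told apart. The part of other cells in the regions at the granule and S100 genes was not tested.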

How the data were processed

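Peak lists on mm10 were analysed, 1 list per library and several from both libraries, per the labels and the deposited file descriptions. The deposited signal comes from the authors' peak caller, 1 value per summit, and the authors also deposited a −log10 p-value per summit. A deposited ranked list gives the authors' score, the −log10 of the global IDR, which was only carried along here. The aligner, peak caller, read filters and any transposase shift are steps not given in the sources used here that could move region counts and summits. Alignments and tracks were not used here, so depth is unknown.

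Summits in the same interval were merged, keeping the strongest. Coordinates are 1-based. Genes and starts are GENCODE M21 (21938 protein-coding genes, mitochondrial ones left out), sequence is GRCm38.p6, and no peak ran past a reference chromosome. Python 3.11.15, numpy 2.4.6, pandas 2.3.3, SciPy 1.17.1 and matplotlib 3.10.9 were used. The procedures were tested on simulated data. Genes and lists were chosen with earlier results of these data known, so no test is given; values stand beside those of all genes or regions. Named genes were the 10, all regulators, and of other lists those of highest signal, most distal regions or, in list order, no promoter region. Alternatives were other lists, windows, overlap rules and summits.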

Additional observations from a re-analysis of the deposited data

How the results depend on the processing

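No paired analysis was possible because the series has 1 group. Of 242 alternative values, 162 stayed within the spread or 1.5 times of the reported value and 80 moved. The cause was not tested. The only signed value, the median log2 ratio, stayed negative. Directions against all genes were not part of this count, and some of them turned. With only the stronger 50% of regions, 3 of the 10 genes kept a promoter region, against 43.9% of all genes. So did 12 of the 30 other granule genes, 5 of the 15 other S100 genes and 3 of the 10 regulators. The median distal count was 4, against 3 over all genes. The loci held 36 regions, and 94.4% of them were in both replicates, against 89.9% of all regions at that setting. The median distal count was 11 in the IDR-thresholded list and 15 in both the replicated and the pseudoreplicated list, against 6, 10 and 9 for all genes. Leaving out 1 replicate gave a median distal count of 7.5 to 8, against 4 over all genes. The median signal was 8.32 without replicate 2 and 8.57 without replicate 1, against 9.01 and 9.58 over all regions of those lists. Locus windows of 20 and 100 kb gave median distal counts of 4.5 and 18, against 2 and 11 over all genes. They held 44 and 161 regions. The median signal was 8.43 in the IDR-thresholded list, against 8.94 over all its regions. It was 6.62 with the mean over summits, which moved the log2 ratio to −0.10. With pseudoreplicated lists 96.8% of regions were in both replicates, against 97.3% of all regions. PU.1 letters were in 4 windows (4.21%) at 50 bp each side, against 5.37% of all windows. Promoter letters were also searched in 100 and 400 bases, chosen after seeing the data. PU.1 letters stayed at 4 genes in both (1.17% and 3.27% of all genes), and C/EBP letters were at 2 and 4 (2.999% and 15.03%). Depth is unknown, so a region missing from a list may lie under its threshold.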
